A study of Mus musculus with 64 samples.

Results

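The posterior central nervous system (CNS) of Eed mutant mouse embryos was followed through late gestation, from embryonic day 15.5 (E15.5) to E18.5. Eed is a core subunit of PRC2, the complex that places the repressive histone mark H3K27me3. Members were chosen by their labels alone: genotype cKO, tissue hindbrain (HB) or spinal cord (SC), and age E15 or E18, the names under which E15.5 and E18.5 were labelled. This gave 8 of the 64 libraries of the series, made of 4 libraries at each age, with HB and SC each sampled from 2 embryos per age. The mutants (Eed-cKO) carried Eed fl/fl together with Sox1-Cre, a driver active in the early neural plate, on a C57BL/6 and 129 background, and no agent was given to any group. Each value therefore reflects neural deletion in tissue that also held vessels, blood, meninges and microglia, which Sox1-Cre does not target. HB and SC libraries of the same age and replicate number were taken as pieces of 1 embryo, so the 8 libraries stand for 4 embryos. The embryos of an age were described as litter mates with a pair taken from each mother, those of E18.5 were decapitated, and which embryos shared a mother was not given, so age, litter and collection cannot be told apart. Set beside them were 8 wild-type (WT) HB and SC libraries of the same ages and 8 forebrain (FB) and midbrain (MB) libraries of the mutant embryos. The WT embryos were described as Eed fl/fl too, so floxed but with Eed intact.

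Between E15.5 and E18.5 the HB and SC pass from making neurons to wiring them and making glia. Newborn neurons switch off the migration and differentiation factors of the Sox11 and Dcx type and turn on synaptic, channel and receptor genes. Radial progenitors stop dividing or become astrocytes and oligodendrocyte precursors. Hox genes, which are classic PRC2 targets, hold the anterior-posterior (A-P) position of HB and SC cells throughout.

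The 8 mutant libraries held between 39067275 and 69854133 counts in genes, so 3 counts in 1 library corresponded to 0.0429 to 0.0768 CPM (counts scaled to the library's total, here before and elsewhere after its TMM normalization factor). Eed mRNA was measured at 9.52, 12.4, 10.1 and 13.3 CPM at E15.5 and at 11.4, 10.3, 10.2 and 10.2 CPM at E18.5, in the order HB embryo 1, HB embryo 2, SC embryo 1, SC embryo 2 that is kept for all such lists. All 8 values lay below those of the WT libraries, which ran from 24.3 to 31.7 CPM, and the mutant level did not differ detectably between ages (log2FC -0.11, SE 0.124, adjusted p = 0.519). Fold changes are given as log2FC, E18.5 minus E15.5, with the region as a term, and come from the quasi-likelihood test of edgeR; adjusted p-values are Benjamini-Hochberg values over every gene tested. The label SC was borne out by Hoxb8, which was 157 and 213 CPM in E15.5 SC against 33.2 and 56.7 CPM in HB, and 111 and 135 CPM against 19.9 and 27.6 CPM at E18.5. A marker of another A-P level was present in the mutant as well. Hoxc10, a trunk-level Hox gene, was present in mutant HB at 34.7 to 55.6 CPM against at most 0.209 CPM in WT HB. Tubb3, the neuronal tubulin, was between 1351 and 1795 CPM in all 8 libraries.

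The embryos of an age differed from each other, and they did so in both tissues. Between the E15.5 embryos the replicate correlation of log2(CPM + 1) was 0.987 in HB and 0.993 in SC, and at E18.5 it was 0.995 and 0.992. At E15.5, 307 genes in HB were more than 2-fold higher in embryo 2 and 59 in embryo 1, and in SC 142 were higher in embryo 2 and 11 in embryo 1. At E18.5 the same counts were 7 against 47 in HB and 96 against 64 in SC. The embryo difference of a gene in HB and in SC was correlated across genes, with Pearson's r = 0.600 at E15.5 and 0.446 at E18.5 over 17540 genes, which are not independent replicates. The common biological coefficient of variation was 0.19 at E15.5 and 0.141 at E18.5.

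The 8 largest differences in favour of E15.5 embryo 2 were of 2 kinds. The immediate-early genes, transcription factors induced within minutes of stimulation, were the largest differences. Fos was 1.59 CPM in HB and 2.98 CPM in SC of embryo 1 but 190 and 148 CPM in embryo 2. Fosb was 0.172 and 0.25 CPM against 55 and 42.4 CPM, and Egr1 5.72 and 6.75 CPM against 167 and 140 CPM. The E18.5 libraries lay near embryo 1, with Fos between 5.03 and 14.2 CPM. In WT, replicate 2 was likewise the high one at E15.5, with Fos at 59.2 CPM in HB and 128 CPM in SC against 1.63 and 6.62 CPM in replicate 1.

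The interferon response was the other. Type I interferon signals through the ISGF3 complex to genes that carry an interferon-stimulated response element. Ifit1, which binds foreign RNA, was 0.602 and 0.318 CPM in HB and SC of E15.5 embryo 1 and 37.9 and 17.4 CPM in embryo 2. Isg15, a ubiquitin-like modifier, was 1.05 and 0.819 CPM against 41.6 and 17.4 CPM. Irf7, a transcription factor that amplifies the response, was 0.86 and 0.841 CPM against 42.2 and 15.7 CPM. Ifit3 and Oasl2 followed the same order, and for all 5 genes both embryo 2 libraries exceeded every other library among the 16 mutant and WT HB and SC libraries. The mean log2(CPM + 1) of the 15 genes of the MHC and interferon list was 2.50, 5.32, 2.49 and 4.37 at E15.5 and 3.41, 2.94, 3.06 and 2.75 at E18.5. The 14 microglial genes summed to 282 and 234 CPM in HB and SC of embryo 2 against 180 and 169 CPM in embryo 1, the 10 erythroid genes to 462 and 317 against 315 and 193 CPM, and the 9 choroid plexus genes in HB to 918 against 103 CPM, and their part in the interferon values was not tested. In the same embryo's MB the interferon list was 4.29 against 2.52 in embryo 1, and in its FB 2.87 against 2.54.

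The upstream sequences of these genes were searched because the genes moved together between the embryos. Those of the 3 genes that held the motif given here are shown. They are RefSeq sequence of build GRCm38.p6, printed 5′ to 3′ on the gene's strand and ending at the base before the gene start, with GAAA, any 2 bases and GAAA in capitals (a core of the interferon-stimulated response element, searched on both strands), where overlapping matches run together.
Ifit1, chr19:34640719-34640888, plus strand: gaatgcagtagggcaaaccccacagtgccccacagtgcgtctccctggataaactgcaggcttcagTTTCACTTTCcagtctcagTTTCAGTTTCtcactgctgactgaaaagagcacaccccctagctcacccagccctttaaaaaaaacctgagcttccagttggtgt
Ifit3, chr19:34583359-34583528, plus strand: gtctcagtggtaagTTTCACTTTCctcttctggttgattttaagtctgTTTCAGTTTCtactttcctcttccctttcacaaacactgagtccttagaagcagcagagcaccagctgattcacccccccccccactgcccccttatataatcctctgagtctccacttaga
Isg15, chr4:156200819-156200988, minus strand: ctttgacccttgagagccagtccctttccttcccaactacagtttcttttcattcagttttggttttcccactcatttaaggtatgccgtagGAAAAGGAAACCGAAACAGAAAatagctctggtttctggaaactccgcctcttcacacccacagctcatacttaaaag
Ifit1 holds the motif at 104 and 85 bases before its start, Ifit3 at 156 and 122, and Isg15 in 3 overlapping copies at 78, 72 and 66. Of the 15 list members, 13 had a promoter window and 6 of these held the motif within 250 bases before the start in any window. Of all 32851 windows searched 2.98% held it, a share per window and not per gene. The list was made of known MHC and interferon genes, so these counts are not a test. Irf7 and Oasl2 held no match in their windows. A match is a description of the letters and was not tied to binding here.

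Across genes, E18.5 embryo 1 minus embryo 2 correlated with the age log2FC, at r = 0.382 in HB and 0.440 in SC. Some genes went against this, such as Wdfy1, which fell with age but was higher in embryo 1. Gfap, the intermediate filament of astrocytes, was 296 CPM in HB and 500 CPM in SC of embryo 1 and 96.9 and 125 CPM in embryo 2. Igfbpl1, found in young neurons, went the other way, with 29.1 and 34.6 CPM in embryo 1 and 53.4 and 70.5 CPM in embryo 2, and so did the surface protein Cd24a, with 211 and 281 CPM against 425 and 513 CPM. WT replicates at E18.5 showed the same order, with Gfap at 57.7 and 210 CPM in replicate 1 against 25.6 and 25.3 CPM in replicate 2. The plot of embryo differences shows both patterns gene by gene.

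**Figure D1:**
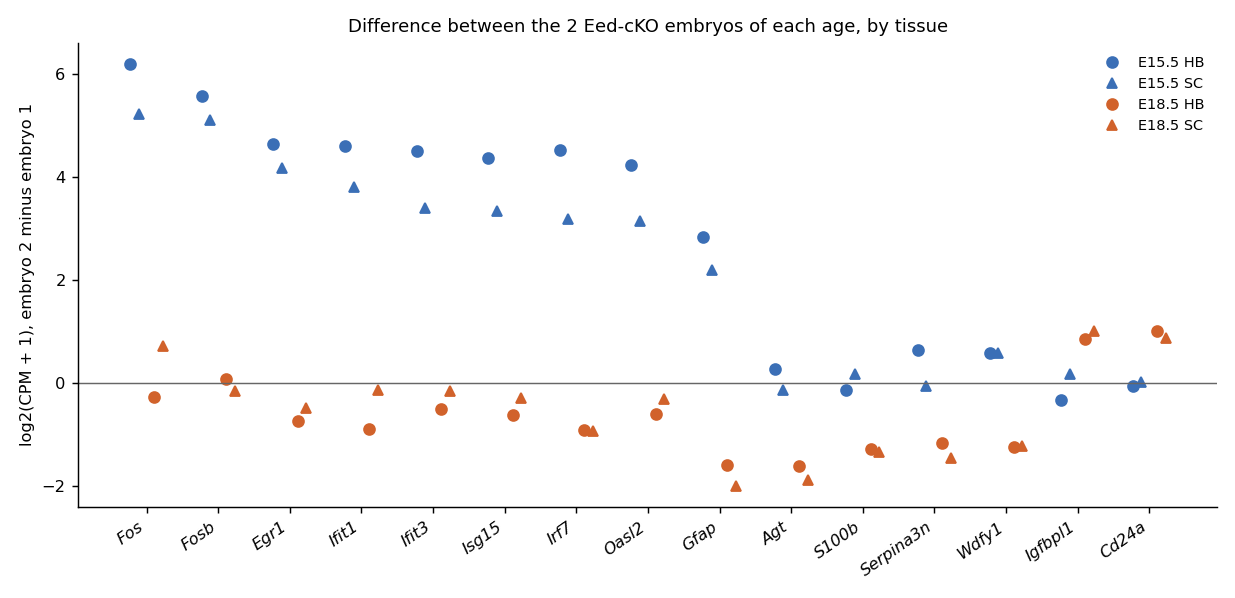
Difference between the 2 Eed-cKO embryos of each age for 15 genes: the vertical axis is log2(CPM + 1) in embryo 2 minus embryo 1, circles are HB, triangles SC, blue E15.5 and orange E18.5. The immediate-early and interferon genes lie between 3.15 and 6.20 above 0 at E15.5 in both tissues, while Gfap, Agt, S100b and Serpina3n lie below 0 at E18.5.

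With region as a term, 2504 of 17540 genes tested differed between the ages by an adjusted p under 0.05 and a log2FC past 0.5 in either direction, and these are called changed below. This was 14.3% of the genes tested, of which 1754 were higher at E18.5 (10%) and 750 lower (4.28%), around a median log2FC of -0.01. These shares are the background for the counts of called list genes below. Since HB and SC of an embryo are not independent, the counts of both tissues were also summed per embryo, which left 1364 called genes with 2 embryos per age. Without both libraries of E18.5 embryo 1 the count was 1171, of which 1087 belonged to the 2504, and without those of E15.5 embryo 2 it was 1990. No called gene changed sign in any of these fits. In both tissues the libraries of the ages did not overlap for 3868 genes that were higher at E18.5 (22.1%) and for 3861 that were lower (22%).

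Astrocyte genes were among the largest rises of genes that averaged 5 CPM or more and did not overlap in either tissue. Agt, the angiotensin precursor that astrocytes secrete, was 0.301, 0.578, 0.932 and 0.753 CPM at E15.5 and 12.1, 3.28, 26.9 and 6.51 CPM at E18.5 (log2FC 4.21, SE 0.624, adjusted p = 0.0032). All E18.5 values were higher, with embryo 1 about 4 times above embryo 2 in each tissue, and with counts summed per embryo the adjusted p was 0.0837. Gfap was 3.09, 28.3, 8.14 and 41 CPM at E15.5 before it reached the E18.5 values above (log2FC 3.64, SE 0.929, adjusted p = 0.0253). At both ages its embryos stood far apart, E15.5 embryo 2 being the higher there, and the adjusted p per embryo was 0.277.

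S100b, a calcium-binding protein of astrocytes, was 3.18, 2.81, 4.5 and 5.21 CPM and then 29.2, 11.4, 39.5 and 15.1 CPM (log2FC 2.63, adjusted p = 0.00335). The protease inhibitor Serpina3n, a marker of reactive astrocytes, went from 2.15 to 3.92 CPM up to 9.06 to 27.1 CPM (log2FC 2.79, adjusted p = 0.00368). Folh1, the enzyme that cleaves N-acetylaspartylglutamate on astrocytes, was 0.946, 0.832, 1.27 and 1.48 CPM and then 13, 7.61, 25.1 and 12.5 CPM. Its log2FC of 3.66 (SE 0.275, adjusted p = 6.85e-04) kept an adjusted p of 0.0164 per embryo, and no E18.5 library came near the E15.5 range. Ptgds, the prostaglandin D synthase of meninges and choroid plexus, rose by 2.98 on the log2 scale and reached 947 and 375 CPM in HB but 142 and 169 CPM in SC.

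Neuronal genes were also among the largest rises. Bc1, a dendritic noncoding RNA that restrains local translation, was 3.65, 5.68, 5.96 and 4.76 CPM and then 94.8, 65, 93.8 and 18.8 CPM (log2FC 3.75, adjusted p = 0.00363). Its value in SC of E18.5 embryo 2 was well below the other 3, though above every E15.5 library. Thy1, a surface glycoprotein of projection neurons, was 20, 30.3, 43.4 and 35.6 CPM and then 173, 116, 204 and 111 CPM (log2FC 2.26, adjusted p = 0.00175). Coro6, a coronin that binds actin, Scrg1 and the sulfotransferase Sult1a1 rose by 2.43, 2.29 and 2.29 on the log2 scale.

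The largest falls were embryonic globins. Hbb-y was 39.5, 126, 34.9 and 97.2 CPM at E15.5 and 0.393, 1.15, 0.0247 and 0.595 CPM at E18.5, and Hba-x was 17.3, 42.1, 14.1 and 34.1 CPM and then 0.295, 0.725, 0.123 and 0.574 CPM. Their log2FC were -7.09 and -5.94. E15.5 embryo 2 held the higher values in both tissues, and with counts summed per embryo the adjusted p were 0.0894 and 0.063. These are genes of yolk-sac-derived red cells, which stay in the tissue's vessels. Fewer cells of a type and less RNA per cell cannot be told apart in bulk tissue, here or in any result that follows.

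Among neural genes, Robo3, the receptor that lets commissural axons reach the midline, was 37.4, 6.01, 41.5 and 54.2 CPM and then 2.7, 2.76, 7 and 14.5 CPM (log2FC -2.53, adjusted p = 0.0167). The HB library of E15.5 embryo 2 lay close to the E18.5 libraries and the other 3 far above them. Sox11, a factor of newly formed neurons, was 926, 855, 730 and 777 CPM and then 193, 346, 211 and 351 CPM (log2FC -1.58, SE 0.21, adjusted p = 0.00206). All 4 E15.5 values were at least 2 times those at E18.5, and embryo 1 was the lower at E18.5 in both tissues.

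Fgfbp3, which binds fibroblast growth factors, fell with the tightest libraries of the group, from 51.6, 54.5, 55.1 and 68.7 CPM to 20.3, 19.1, 23.5 and 26.4 CPM (log2FC -1.37, SE 0.0817, adjusted p = 6.85e-04). Scrt2, a repressor of neuronal precursors, fell by 1.30 on the log2 scale, as did the chromatin protein Phf21b. Igfbpl1, Sinhcaf, the ubiquitin ligase Rnf122 and the zinc finger factor Zbtb20 fell by 1.42, 1.76, 1.27 and 1.27. Wdfy1 completed the list at -1.33, but its embryos differed in both tissues at each age, more so at E18.5 (108, 163, 97.9 and 147 CPM, then 70.8, 29.5, 73 and 30.9 CPM), WT replicates 1 and 2 differed likewise, and the adjusted p per embryo was 0.285. The plot of these rises and falls shows every library.

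**Figure D2:**
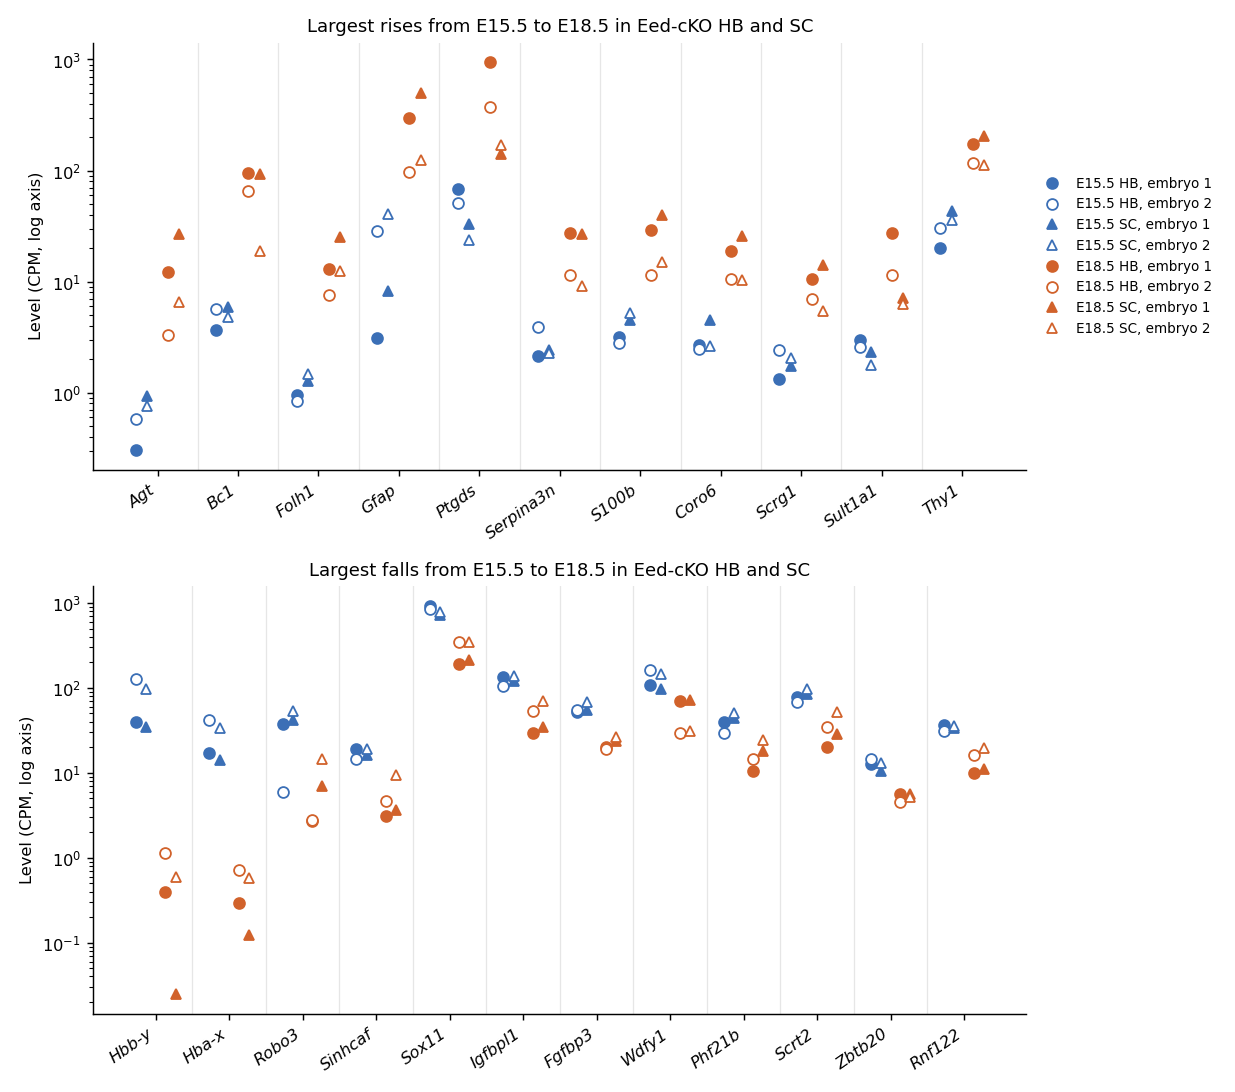
Levels of the largest rises and falls described above in the 8 Eed-cKO posterior libraries, in CPM on a log axis; circles are HB, triangles SC, filled symbols embryo 1 and open symbols embryo 2, with E15.5 in blue and E18.5 in orange. Hbb-y fell from 34.9 to 126 CPM down to at most 1.15 CPM, and filled orange symbols lie above open ones for the astrocyte genes Agt, Gfap, S100b and Serpina3n.

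All 14 tested genes of the newborn neuron list had a negative log2FC. Of the 14 tested genes of that list 9 fell, none rose and the median log2FC was -0.72, beside -0.01 over all genes tested. Nhlh1, a bHLH factor of postmitotic neurons, was 7.13, 2.57, 7.23 and 14 CPM and then 0.27, 0.34, 1.87 and 3.59 CPM (log2FC -2.77, adjusted p = 0.00743). Neurod4 fell by 2.92 from low levels (2.36, 0.479, 1.34 and 2.81 CPM to 0.196, 0.0679, 0.123 and 0.553 CPM), and Nhlh2 by 1.23. Dcx, the microtubule protein of migrating neurons, was 1718, 1557, 1503 and 1494 CPM and then 641, 1043, 728 and 1156 CPM (log2FC -0.82, adjusted p = 0.0105), with embryo 1 the lower at E18.5. Sox4, the proneural factor Neurog2 and the Notch ligand Dll1 fell by 0.89, 1.01 and 0.63. Without E18.5 embryo 1, 4 of the 15 genes then tested were called, and without E15.5 embryo 2, 8 of 14.

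Genes of dividing and progenitor cells were counted next. Of 20 cell division genes 4 fell, beside 4.28% of all genes tested, and none rose, at a median log2FC of -0.40. These were the replication helicase subunits Mcm5 and Mcm7 (-0.68 and -0.69), the replication factor Mcm10 (-0.70) and the spindle checkpoint kinase Bub1 (-0.57). Mki67, the usual proliferation marker, was 55, 61.7, 53.7 and 87.8 CPM and then 40.9, 46.5, 52.8 and 70.4 CPM, with the ages overlapping (adjusted p = 0.155). Leaving out either E15.5 embryo 2 or E18.5 embryo 1 left 2 called, at medians of -0.17 and -0.30, and counts summed per embryo gave 2 as well. Of 15 neural progenitor genes 3 fell (Nes, Msi1 and Hmga2) and 1 rose, beside 4.28% and 10% of all genes tested. The gene that rose was Fabp7, the fatty acid binding protein of radial glia, by 0.76. Without E18.5 embryo 1, 2 of the 15 were called lower and 0 higher. Sox2 was 79.9 to 92.1 CPM at E15.5 and 87 to 120 CPM at E18.5 (adjusted p = 0.0572).

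The cell cycle inhibitors Cdkn1a and Cdkn2a rose, as 2 of the 9 genes of their list, beside 10% of all genes tested, and 1 of the 9 was called without E15.5 embryo 2 and 1 without E18.5 embryo 1. Cdkn1a was 61.2, 72.3, 57.5 and 53.1 CPM and then 122, 115, 128 and 86.1 CPM (log2FC 0.89, SE 0.123, adjusted p = 0.00203). Cdkn2a, the Ink4a/Arf locus that PRC2 classically silences, was 16, 18.5, 11.2 and 10.3 CPM and then 28.5, 26, 22.7 and 13.4 CPM (log2FC 0.70, SE 0.153, adjusted p = 0.00916). WT libraries did not exceed 0.139 CPM at either age, so Cdkn2a was already present in the mutant at E15.5 and was higher at E18.5 within each tissue.

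Genes of the neuron's mature machinery were higher at E18.5 in part. Of 20 synaptic and neurofilament genes 10 rose and none fell (median log2FC 0.49), with the same count without E15.5 embryo 2 or without E18.5 embryo 1. Nefh, the heavy neurofilament subunit of large axons, was 30.1, 37.5, 59.8 and 61.1 CPM and then 155, 109, 290 and 171 CPM (log2FC 1.95, SE 0.186, adjusted p = 0.00101). Vamp1, a vesicle fusion protein, rose by 1.66 and Syt2, the fast calcium sensor of HB and SC synapses, by 1.40, from 17.1, 19.8, 36.6 and 34.8 CPM to 62.6, 47.6, 94.1 and 73.7 CPM. SC was higher than HB at each age for both Nefh and Syt2. The medium and light neurofilaments Nefm and Nefl rose by 1.16 and 0.73, and Syp, Syn2, Snap25, Sv2b and Cplx1 by 0.60 to 0.97.

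Of 20 excitability genes 11 rose and none fell (median log2FC 0.57). Scn4b, a sodium channel beta subunit, rose by 1.99 on the log2 scale. Slc12a5, the potassium chloride cotransporter that makes GABA and glycine inhibitory, was 272, 239, 283 and 210 CPM and then 479, 431, 512 and 417 CPM (log2FC 0.88, adjusted p = 0.00152), with a wide gap between the ages. Kcnj10, the glial potassium channel, rose by 1.16 and the pacemaker channel Hcn2 by 0.91.

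Receptors and transmitter genes were grouped by transmitter. Of 16 GABA and glycine receptor genes 7 rose (median log2FC 0.40). Glrb, the glycine receptor anchor subunit, was 35.2, 41, 41.8 and 39.5 CPM and then 91.7, 78.4, 107 and 88.3 CPM (log2FC 1.21, SE 0.0908, adjusted p = 6.85e-04). Glra3 rose by 1.20 at under 3 CPM, and Gabra5 by 0.76. Of 15 glutamate receptor genes 6 rose (median 0.41), including the obligate NMDA subunit Grin1 (0.61) and Grin2d (0.77), but without E15.5 embryo 2 only 1 of them was called, while the median was 0.39.

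Among 15 genes of transmitter synthesis and transport 5 rose. Slc6a5, the glycine transporter of inhibitory neurons, was 16.4, 18.1, 24.6 and 20.5 CPM and then 40.6, 36.6, 41.9 and 43.8 CPM (log2FC 1.04, SE 0.0874, adjusted p = 6.85e-04). The vesicular transporters Slc17a6 for glutamate and Slc32a1 for GABA and glycine rose by 0.62 and 0.60. Slc5a7, the choline transporter of cholinergic neurons, rose by 0.81. Of 12 neuropeptide genes 5 rose, led by Calca (CGRP), which was 4.36, 4.53, 7.94 and 6.31 CPM and then 13.8, 10.9, 22.6 and 18.6 CPM (log2FC 1.51, adjusted p = 6.85e-04). With counts summed per embryo 2 of the 12 were called, and without either E15.5 embryo 2 or E18.5 embryo 1, 3 were. In the motor neuron list 1 of 9 genes was called, beside 14.3% of all genes tested. It was the LIM factor Isl1 (log2FC -0.84), and 0 of 9 were called with counts summed per embryo. Of 20 axon growth and guidance genes 2 fell, beside 4.28% of all genes tested. These were Robo3 and the netrin receptor Dcc (-0.85), and neither was called without E18.5 embryo 1.

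Pairs of genes known for early and for late expression were compared per exon length, as RPKM, CPM divided by exon length in kilobases. For the glycine receptor the early subunit Glra2 stayed ahead of the late Glra1 at E18.5, at 40.8 ± 7.05 RPKM against 5.46 ± 1.34 RPKM (SD, n = 4 libraries from 2 embryos), and neither was called (adjusted p = 0.499 and 0.0746). For the NMDA receptor the late Grin2a went from 0.463 ± 0.117 to 0.862 ± 0.254 RPKM and was called (log2FC 0.87), while Grin2b at 3.89 ± 0.559 RPKM still exceeded it at E18.5. Slc12a5 was already above its early counterpart Slc12a2 at E15.5, at 41.6 ± 5.49 against 9.44 ± 0.378 RPKM. The late synaptotagmin Syt2 rose from 8 ± 2.97 to 20.5 ± 5.78 RPKM beneath the early Syt1 at 60.8 ± 6.67 RPKM. Among intermediate filaments Gfap overtook Nes, with 4.94 ± 4.34 RPKM against 28.8 ± 3.41 RPKM at E15.5 and 62.4 ± 45.6 against 17.3 ± 3.72 RPKM at E18.5.

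Astrocyte genes gave the largest list change by median log2FC with all 8 libraries. Without E18.5 embryo 1 the MHC and interferon list did, at -1.48. Of 15 astrocyte genes 12 rose, none fell and the median log2FC was 1.42. Aqp4, the water channel of astrocyte endfeet, was 51.7, 57.9, 45.2 and 37.4 CPM and then 172, 152, 235 and 151 CPM (log2FC 1.90, SE 0.188, adjusted p = 0.00109). Apoe, the lipid carrier, was 214, 307, 233 and 284 CPM and then 1379, 763, 1291 and 555 CPM, and Aldoc, the glycolytic enzyme of astrocytes, rose by 1.73. The glutamate transporters Slc1a2 and Slc1a3 each rose by 0.65. The list's mean log2(CPM + 1) was 5.77, 6.19, 6.08 and 6.24 at E15.5 and 7.73, 7.12, 7.95 and 7.17 at E18.5, so the ages did not overlap and embryo 1 was the higher at E18.5. Without that embryo 7 of the 15 genes were called, at a median of 1.16, and with counts summed per embryo 5 were.

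Oligodendrocyte genes were grouped by stage. Of 10 precursor genes 6 rose (median log2FC 0.69), among them Pdgfra, the growth factor receptor of the precursor, at 0.56, the proteoglycan Cspg4 at 0.89 and the lineage factors Olig1 and Olig2 at 1.07 and 0.71. Olig1 was 44.4, 52, 61.1 and 58.4 CPM and then 97, 97.2, 159 and 102 CPM. Of 16 tested myelin-stage genes 3 rose and 1 fell, beside 10% and 4.28% of all genes tested. The median log2FC was 0.35, with 11 of the 16 positive. The rises were of 0.74 to 1.08, among them the tetraspanin Tspan2 (0.77). Ugt8a, an enzyme of myelin lipid synthesis, fell by 0.57. With counts summed per embryo, without E15.5 embryo 2 and without E18.5 embryo 1 alike, 2 were called higher and 0 lower. The stages were not tested against each other. Mbp, the myelin basic protein, was 63.7, 55, 52.6 and 61.3 CPM and then 55.1, 55.8, 56.2 and 61.7 CPM (log2FC -0.02, SE 0.0735, adjusted p = 0.829). Mag and Mog were likewise without a call, with log2FC of 0.06 and -0.20. In WT E18.5 libraries Mbp was 120 and 130 CPM in replicate 1 but 69.7 and 65.7 CPM in replicate 2, and the difference of the age effect between genotypes was not called for any gene of the list. Opalin, a gene of mature oligodendrocytes, stayed at or near 0.

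Of 7 tested ependymal and cilia genes 5 rose (median log2FC 0.76). Rsph1, a radial spoke protein, was 1.83, 2.95, 2.02 and 1.62 CPM and then 6.9, 5.12, 5.33 and 3.68 CPM (log2FC 1.32, adjusted p = 0.00294). The dynein chains Dnah5 and Dnah11 rose by 0.64 and 0.76. Without E18.5 embryo 1, 1 of the 7 was called, without E15.5 embryo 2, 2 of the 8 then tested, and with counts summed per embryo 1 of 9.

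**Figure D3:**
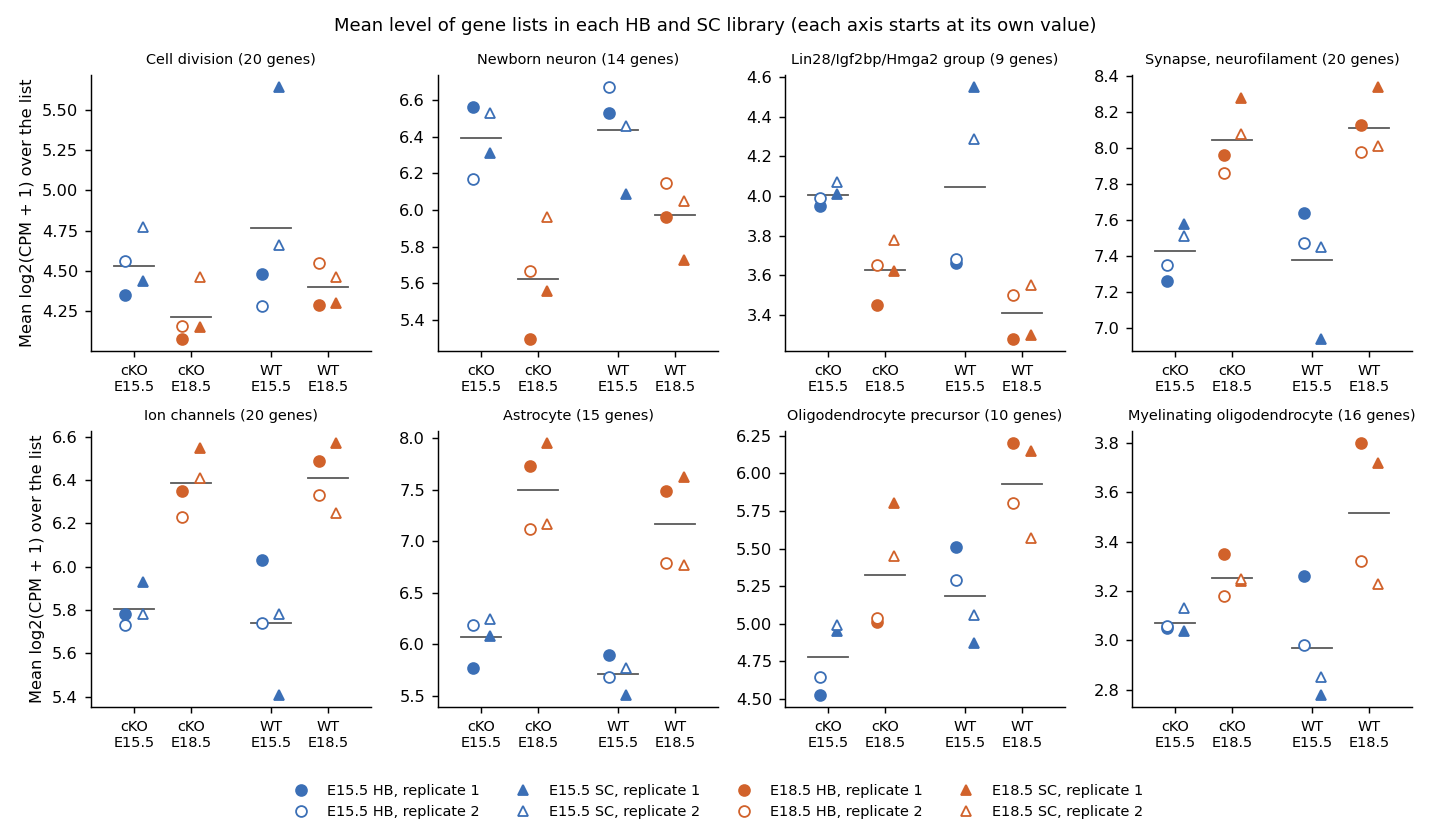
Mean log2(CPM + 1) of 8 gene lists in each Eed-cKO and WT library of HB (circles) and SC (triangles), with replicate 1 filled and replicate 2 open, E15.5 blue and E18.5 orange, and a bar at the mean of 4 libraries. In the mutant the astrocyte list went from 5.77 to 6.24 up to 7.12 to 7.95. The newborn neuron list went from 6.17 to 6.56 down to 5.30 to 5.96.

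Regulators of developmental time were lower at E18.5 in part. Of 9 tested genes of the Lin28, Igf2bp and Hmga2 group, which mark early progenitors, 4 fell and none rose (median log2FC -0.31). Igf2bp1, an RNA-binding protein and let-7 target, was 20, 20.5, 19.7 and 25 CPM and then 8.94, 11.8, 8.33 and 12 CPM (log2FC -1.06, SE 0.138, adjusted p = 0.00162), with no overlap. Hmga2 fell by 0.82, Igf2bp3 by 0.63 and Igf2bp2 by 0.52, whereas Lin28b was -0.28 and not called. Of the 4 Nfi factors, which drive gliogenesis, Nfib fell from 349, 285, 278 and 340 CPM to 144, 154, 180 and 194 CPM (log2FC -0.91, adjusted p = 0.0012). Nfia and Nfix were -0.38 and -0.26 without a call, and Nfic had a positive log2FC, also without a call.

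Subunits of PRC2 itself were measured as well. Of 11 subunit genes 3 fell, beside 4.28% of all genes tested. The methyltransferase Ezh2 fell from 62.1, 54.8, 58.1 and 67.4 CPM to 25.6, 32.1, 30 and 39.5 CPM (log2FC -0.94, SE 0.108, adjusted p = 0.0012), and Rbbp4 and Mtf2 by 0.53 and 0.52. Without E18.5 embryo 1, 1 of the 11 was called. Ezh1, the methyltransferase of resting cells, was 35.8 ± 2.41 CPM at E15.5 and 38.8 ± 1.12 CPM at E18.5 (SD, n = 4 libraries; adjusted p = 0.175). In WT, Ezh2 fell by 0.88.

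Of 38 tested Hox genes 8 fell and none rose (median log2FC -0.20), but none was called without E18.5 embryo 1 and 2 were with counts summed per embryo. Without E15.5 embryo 2, 2 rose and 2 fell, with 18 positive and 20 negative log2FC. Hoxd1 was 4.08, 1.07, 2.71 and 3.46 CPM and then 0.368, 0.226, 0.247 and 1.7 CPM (log2FC -2.28, adjusted p = 0.0297). Hoxd3 fell by 0.54 and kept an adjusted p of 0.0269 per embryo. Hoxb8 fell by 0.75, with the values given above. Of the Hox genes that were low in WT HB, Hoxc10 had a log2FC of 0.30 and Hoxd13 one of -0.02, and neither was called.

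Of 15 anterior transcription factor genes, which the mutant expresses far from the forebrain, 5 fell and none rose (median log2FC -0.72). Otx2, the fore- and midbrain factor, was 34.6, 19.1, 7.64 and 5.07 CPM and then 9.63, 13.4, 3.8 and 4.02 CPM (log2FC -0.97, adjusted p = 0.0138; 0.0742 per embryo). Pax2 and Pax8, factors of the midbrain-hindbrain border and of SC interneurons, fell by 0.72 and 0.80, and Eomes by 2.46. Among the mutant HB and SC libraries, HB of E15.5 embryo 1 was the highest for this list, with a mean of 4.56 against 3.77 in embryo 2. Its En2, a border gene, was 138 CPM against 33.9 CPM, and its Slc6a2, the noradrenaline transporter, 34.5 against 6.67 CPM. The part of the cut between MB and HB in these results was not tested. Without E15.5 embryo 2, 12 of the 15 genes were called lower.

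Genes near absent from WT HB and SC formed a further group, defined after the values were seen as those tested in the mutant with a WT mean under 0.5 CPM and a mutant mean of at least 0.5 CPM. There were 316 such genes. Since a gene could enter through the age at which it was high, as Wnt10b did, the calls among them are given as examples only. Wnt10b, a Wnt ligand, was 0.774, 0.395, 0.205 and 0.232 CPM and then 1.79, 1.7, 1.63 and 1.32 CPM (log2FC 2.11, adjusted p = 0.00219). Cyp26a1, the retinoic acid hydroxylase of the tail end, was 0.15, 0.338, 1.41 and 1.59 CPM and then 0.884, 0.883, 6.07 and 2.68 CPM (log2FC 1.64, adjusted p = 0.00551), SC being above HB. Cdx2, the caudal homeobox factor, had a log2FC of 1.84, and the ligand Nodal one of 1.02. Dlx1 was among those that fell (-0.90), from 2.92, 2.3, 1.61 and 1.39 CPM to 1.08, 1.63, 0.962 and 0.702 CPM.

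Cells outside the neural lineage were measured through their markers. Of 14 microglial genes 2 rose, of 11 endothelial genes 2 and of 7 pericyte genes 2, 1 of which was Cspg4 of the oligodendrocyte precursor list, beside 10% of all genes tested. The microglial count was 6 without E15.5 embryo 2, 0 without E18.5 embryo 1 and 0 with counts summed per embryo, and the endothelial count was 1 in each of the last 2 cases. Flt1, the endothelial VEGF receptor, was 20.4, 23.8, 19.3 and 21.6 CPM and then 40.6, 34.6, 43.5 and 27.9 CPM (log2FC 0.79, adjusted p = 0.00434), and Higd1b, a pericyte gene, rose by 1.42. The summed level of the 9 choroid plexus genes was 103 and 918 CPM in E15.5 HB and 693 and 1123 CPM in E18.5 HB, through Ttr at 37.1, 778, 591 and 978 CPM. It did not exceed 58.7 CPM in SC, and its part in the HB values was not tested. The 12 genes of the meningeal list summed to between 1818 and 3892 CPM over the 8 libraries. Of them 2 were higher and 1 lower, beside 10% and 4.28% of all genes tested. The muscle and cartilage list summed to between 65.2 and 179 CPM, highest in SC of E18.5 embryo 1. Schwann and dorsal root ganglion genes scored 3.51 in SC of E18.5 embryo 1 and 5.02 in SC of embryo 2, a gap between libraries of the same group.

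Of the 10 erythroid genes tested 5 fell and 1 rose (median log2FC -1.04), against 1 lower with counts summed per embryo, 2 lower of 9 without E15.5 embryo 2 (median -0.48) and 3 lower without E18.5 embryo 1. The falls included the embryonic globins, and Hbb-bh1 was 0.666, 1.73, 0.5 and 1.25 CPM at E15.5 but listed at 0 in 3 of the 4 E18.5 libraries. Adult Hbb-bs rose from 19.9, 10.5, 3.91 and 20.4 CPM to 64.3, 39, 60 and 55 CPM (adjusted p = 0.021). Per exon length Hba-x went from 44.7 ± 22.3 to 0.714 ± 0.451 RPKM, below Hba-a1 at both ages (164 ± 39 and 140 ± 59.5 RPKM). Hba-a1 shares reads with its near-identical copy Hba-a2, so its own level is uncertain.

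The age effect of the immediate-early and interferon lists was computed with and without E15.5 embryo 2. Of 15 MHC and interferon genes none was called (median log2FC -1.23), with 6 higher at a median of 0.78 once E15.5 embryo 2 was left out. Of these 15 genes DESeq2 called 1 higher and 5 lower. Of the 10 immediate-early genes 1 rose and 1 fell, beside 10% and 4.28% of all genes tested. Arc rose by 1.16, from 2.77, 3, 3.43 and 2.56 CPM to 7.78, 5.75, 6.98 and 5.68 CPM, and Dusp1 fell by 0.79. Without E15.5 embryo 2, 4 were called higher.

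The age effect was then compared between HB and SC of the mutant. None of 17540 genes (0%) differed in its log2FC between the tissues by edgeR, with 231 at an unadjusted p under 0.05, and DESeq2 called 1, Hba-a2. With the embryo as a block the count was again 0, with 1022 at an unadjusted p under 0.05. With 2 embryos per age this count of 0 does not show that the tissues changed alike. Fitted alone, HB gave 961 called genes and SC 367.

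The WT libraries gave the background of normal development. The same fit called 1114 of 17324 genes (6.43%) between WT ages, 796 higher (4.59%) and 318 lower (1.84%). Among 17158 genes tested in both genotypes, 643 rose in both, which was 37.7% of those that rose in the mutant and 81.4% of those that rose in WT. Of the falls 185 were shared, 25.2% of the mutant's and 59.7% of the WT's, and 0 genes were called in opposite directions. The number of WT calls behind these shares was 0 without E15.5 HB replicate 2, E15.5 SC replicate 2 or E18.5 HB replicate 1. At an unadjusted p under 0.05 these fits held 5232, 4144 and 4124 genes, against 5225 with all libraries. The number called was 2 without E18.5 SC replicate 1 and 40 with counts summed per embryo. Of the genes that rose in the mutant 92.1% had a positive log2FC in WT, and of those that fell 97% had a negative one. Over all 17324 genes tested in WT, 8401 log2FC were positive and 8923 negative. Across genes the log2FC of the genotypes correlated at r = 0.615.

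A larger count in the mutant is not a test of a difference, since the median standard error was 0.15 in WT and 0.1 in the mutant. The WT E15.5 SC libraries also held markers of other tissue. Myh3, the embryonic muscle myosin, was 498 and 44.9 CPM there against at most 1.92 CPM in the other WT libraries, and Col2a1, the cartilage collagen, was 791 and 636 CPM against 19 to 96.4 CPM. In the mutant Col2a1 was 142, 82.1, 89.4 and 136 CPM and then 54.2, 45.1, 56.4 and 55.2 CPM.

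**Figure D4:**
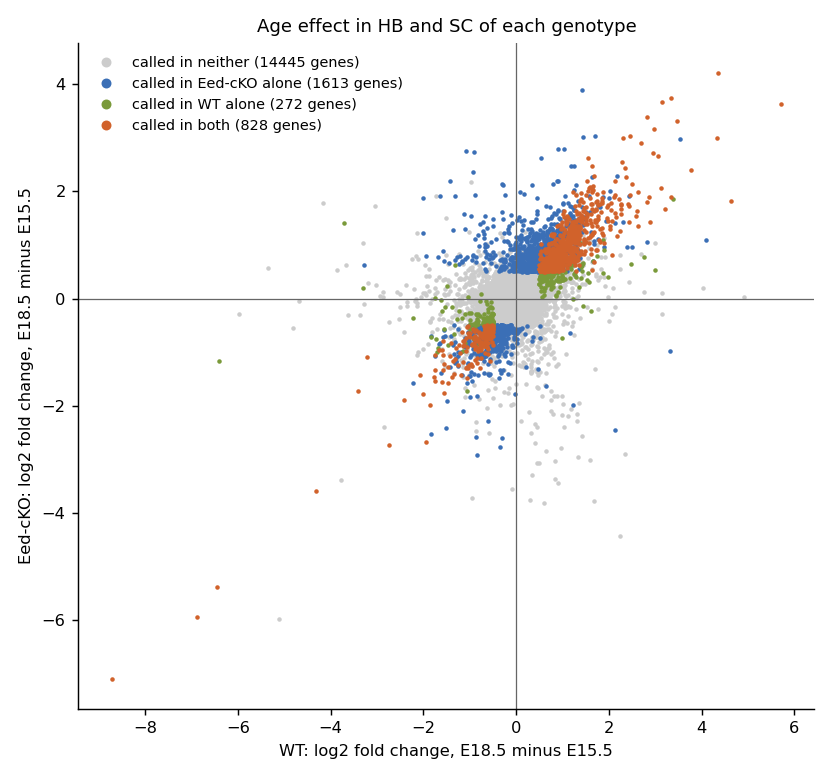
Age effect in WT (horizontal) and in Eed-cKO (vertical) HB and SC, both as log2 fold change of E18.5 minus E15.5, for 17158 genes tested in both genotypes. Genes called in both (828, orange) lie at the upper right and lower left; 1613 genes were called in the mutant alone and 272 in WT alone, which is not a test of a difference.

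The difference itself was tested as an interaction of age and genotype, and 5 of 17394 genes were called (0.0287%). For 4 of them the WT E15.5 SC libraries were the highest of the 8 WT libraries. Pax1, a sclerotome and pharyngeal factor, was 4.1, 6.08, 2.89 and 2.77 CPM in E15.5 mutants and 8.5, 8.51, 3.16 and 2.49 CPM at E18.5, against 183 and 103 CPM in WT E15.5 SC and at most 0.301 CPM in every other WT library (difference of log2FC 9.06, adjusted p = 0.00358). Pax9 had the same shape (6.19, adjusted p = 0.0111). Hoxd13 was 6.47, 7.47, 9.21 and 9.5 CPM and then 7.22, 7.86, 8.11 and 8.76 CPM in the mutant, while in WT SC it went from 3.48 and 3.17 CPM to 0.947 and 1.09 CPM (1.62, adjusted p = 0.0111). Hoxa13, the most posterior Hox gene of its cluster, went from 5.22 and 2.07 CPM to 0.437 and 0.301 CPM in WT SC and stayed between 4.66 and 6.51 CPM in the mutant (3.54, adjusted p = 0.0442).

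Corin, a transmembrane protease, was the other gene called. In the mutant it was 12.8, 10.7, 7.12 and 8.47 CPM and then 12, 13.1, 6.9 and 7.97 CPM. In WT it was 10, 12.5, 8.8 and 7.95 CPM and then 4.96, 5.33, 4.35 and 4.56 CPM (1.04, adjusted p = 0.0446). Without the 2 WT E15.5 SC libraries, a choice made after their muscle and cartilage genes were seen, 10 genes were called, 2 higher and 8 lower and none of the 5 among them, and with HB alone 0 were, with 816 at an unadjusted p under 0.05. DESeq2 called 22, 19 of them higher, with Pax9, Hoxd13, Hoxa13 and Corin among them but not Pax1. Corin was not called with counts summed per embryo, with the replicate number as a block or without the filter on low counts. As a block within genotype the number left 1 call, Pax1, and as a block within age, shared by mutant and WT, it left 3, Pax1, Hoxd13 and Pax9. The part of muscle and cartilage tissue in Pax1, Pax9, Hoxd13 and Hoxa13 was not tested. The plot by genotype and tissue gives the libraries behind these calls.

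**Figure D5:**
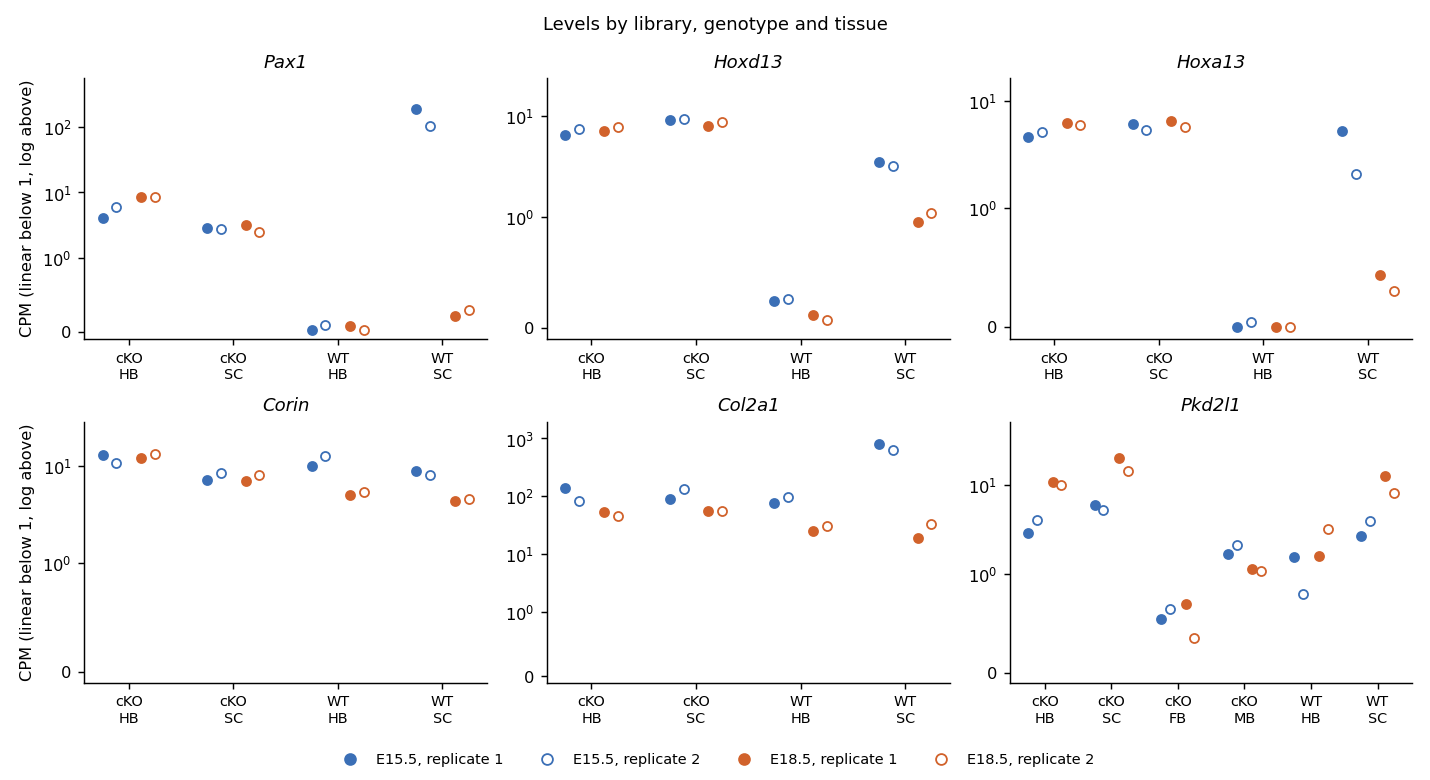
Levels in CPM (linear below 1, log above) of Pax1, Hoxd13, Hoxa13, Corin, Col2a1 and Pkd2l1, by genotype and tissue, with E15.5 blue, E18.5 orange, replicate 1 filled and replicate 2 open. Pax1 and Col2a1 are high in WT E15.5 SC; Corin falls in WT HB and SC and not in the mutant; Pkd2l1 rises in mutant HB and SC and not in mutant FB or MB.

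Against the FB and MB of the mutant embryos, 1 of 17443 genes (0.00573%) changed differently in HB and SC. Pkd2l1, the channel of cerebrospinal fluid contacting neurons that line the central canal, was 2.88, 4.02, 5.91 and 5.13 CPM in HB and SC at E15.5 and 10.7, 9.92, 19.8 and 14.3 CPM at E18.5. In FB it was 0.546 and 0.642 CPM and then 0.691 and 0.352 CPM, and in MB 1.66 and 2.11 CPM and then 1.12 and 1.06 CPM. The difference of log2FC was 2.16 (adjusted p = 0.0354). The call held without E15.5 HB replicate 2, E18.5 FB replicate 1 or E18.5 SC replicate 2, and was lost without any other single library and with library totals. The posterior rise alone was 1.60 (SE 0.149, adjusted p = 9.29e-04). In WT it rose by 1.35. With the embryo as a block, which these shared embryos allow, 4 genes were called, Pkd2l1, Calca (1.34), the sodium and calcium exchanger Slc24a2 (0.55) and Hoxb8 (0.99). Calca rose in HB and SC as given above, and was 0.875 to 3.32 CPM in FB and MB at both ages. For Hoxb8 the positive difference came with a fall in all tissues, from 15.2 to 36.4 CPM down to 4.24 to 9.48 CPM in FB and MB.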

How the data were processed

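RNA-seq was made from the HB and SC of Eed-cKO embryos and, for comparison, from WT HB and SC and mutant FB and MB. Per the file headers and their methods, the authors trimmed paired reads, aligned them with Hisat2 to mm10 (up to several alignments per read) and made counts per gene with featureCounts 2.0.0 on RefSeq exons, without strand, taking fragments with both ends mapped to 1 chromosome, so overlapping and antisense genes cannot be told apart. A second table, deposited as a normalized signal per gene from fastp, Salmon and DESeq2, served as an alternative. Of the 64 libraries 24 were used here.

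Entrez IDs were matched to symbols (25275 of 27179), and rows without a symbol held 0.398 to 0.753% of counts in mutant HB and SC, whose totals were 39067275 to 69854133. Genes with 10 or more counts in 50% of the libraries of a comparison were tested by edgeR 4.0.16 (TMM, robust quasi-likelihood) in R 4.3.3, with calls made at a Benjamini-Hochberg adjusted p under 0.05 and an absolute log2FC past 0.5. Alternatives used DESeq2 1.42.0, limma 3.58.1 (log2 of the signal + 1, and voom with the embryo as a random block), other filters and thresholds, HB and SC summed per embryo, and each library or embryo left out. CPM were scaled by TMM over the 24 libraries. Interactions of age with region, genotype and A-P position were fitted in the same way. The scripts were tested on simulated counts.

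HB and SC libraries of the same age and replicate number were taken as 1 embryo, which the labels do not state. Their deviations correlated at r = 0.600 at E15.5 and 0.446 at E18.5. At E18.5 the replicate differences of mutant and WT, which are different embryos, correlated at 0.458 in HB and 0.493 in SC. The value of 0.446 therefore does not by itself show the pairing. Numbers do not pair embryos of different ages. Nothing but these embryos separates replicates. The main fits held no embryo term, so their p-values measure the spread among libraries and count HB and SC of an embryo separately. Counts summed per embryo give p-values that measure the spread between 2 embryos per age. Litter cannot be separated from embryo or age. Depth gives counting error only in the stated floor of 3 counts. The members, the 32 gene lists and the tests were chosen with earlier results of these data known. Named genes were the 12 largest rises and falls among called genes averaging 5 CPM or more without overlap, up to 5 of the largest changes in each list and those whose role the text needed, pairs of early and late genes, the called interaction genes and the 8 largest embryo differences in each direction. Some genes that this rule names are not reported here. Genes near absent from WT, and Slc24a2, were chosen after their values were seen.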

Additional observations from a re-analysis of the deposited data

Results flagged for a closer look

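In 6 cases the age effect differed between groups by the test of the difference itself. Between mutant and WT posterior CNS the log2FC differed by 9.06 for Pax1, 6.19 for Pax9, 3.54 for Hoxa13, 1.62 for Hoxd13 and 1.04 for Corin, each higher in the mutant. For the first 4 genes the WT E15.5 SC libraries were the highest of the WT libraries, and in these Myh3 (498 and 44.9 CPM) and Col2a1 (791 and 636 CPM) were also high, and the part of muscle and cartilage in the difference was not tested. Corin fell in both WT tissues (log2FC -1.03, adjusted p = 0.0246 by edgeR) and was 0.02 in the mutant, but its difference was not called without the 2 WT E15.5 SC libraries, in HB alone, with counts summed per embryo or with a replicate block. Between the posterior and anterior CNS of the mutant the log2FC of Pkd2l1 differed by 2.16, with 2.88 and 4.02 CPM in HB and 5.91 and 5.13 CPM in SC at E15.5, 10.7 and 9.92 CPM in HB and 19.8 and 14.3 CPM in SC at E18.5, and at most 2.11 CPM in any FB or MB library. That call was lost with library totals and without most single libraries.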

How the results depend on the processing

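The count of 2504 genes changed with age in mutant HB and SC was 6412 without a threshold on log2FC and 731 with a threshold of 1. It was 1364 with HB and SC summed per embryo, 961 in HB alone and 367 in SC alone. Leaving out 1 library gave 1860 to 2997, and leaving out both libraries of 1 embryo gave 1171 (E18.5 embryo 1) to 3304 (E18.5 embryo 2). DESeq2 called 2562, of which 2377 were among the 2504, limma on the signal values 2303, voom with the embryo as a random block 1752, and a replicate block on the replicate number, which is no pairing across ages, 2532. The difference between HB and SC, 0 genes, became 1 with DESeq2, 1 without a filter on low counts and 0 to 1 with 1 library left out, and stayed 0 with the embryo as a replicate block. The genotype difference, 5 genes, became 22 with DESeq2, 0 with limma on the signal values (695 at an unadjusted p under 0.05), 2 with counts summed per embryo, 1 with a replicate block within genotype, 0 to 5 with 1 library left out (0 without either WT E18.5 SC replicate), and, in alternatives chosen after seeing the data, 3 with a replicate block within age shared by mutant and WT, 10 without the 2 WT E15.5 SC libraries and 0 in HB alone. Replicate differences of mutant and WT correlated at r = 0.264 in HB and -0.071 in SC at E15.5 and 0.458 and 0.493 at E18.5, and whether mutant and WT embryos of a number shared a mother was not given. The A-P difference, 1 gene, became 4 with DESeq2, 4 with the embryo as a replicate block, 0 with library totals and 0 to 1 with 1 library left out. The WT count of 1114 became 493 with a threshold of 1, 1955 with DESeq2, 40 with counts summed per embryo and 0 to 1032 with 1 library left out. The causes were not tested. Of 3386 alternative values of single genes 2793 stayed on the same side of the threshold with the same direction, 590 lost the call, 3 gained it and 0 reversed; 25 of 152 called genes held under every alternative. Of 160 alternative list counts 107 were within 1.5 times of the value given. With 2 embryos per age, small changes could not be told from spread.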
